A study of Homo sapiens with 6 samples.

Results

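Among 54030 human nuclei from 6 teratoma libraries, 480 carried RNA of TP63 together with RNA of a squamous structural gene, and 90.6% of these held RNA of MIR205HG, the host transcript of the microRNA miR-205. A human nucleus here had at least 500 unique molecular identifiers (UMIs, each counting 1 RNA molecule) on human genes, at least 300 human genes, and at least 90% of its UMIs on human genes. A human nucleus was called TP63 squamous when it held at least 1 UMI of TP63 and at least 1 UMI of any of 6 partner genes, KRT5, KRT15, KRT14, DSG3, DSC3 and COL17A1. The measured UMIs of these 7 genes chose the nuclei, so their high levels in them are a description and were not tested.

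The teratomas were grown from H1, an established human embryonic stem cell line, in the flank of NSG mice, which lack mature lymphocytes and natural killer cells, with the cells mixed with an equal volume of matrigel before injection. The 3 groups were WT, an LNCPRESS1 knockout (KO) and ΔATG, written DATG below, with 2 libraries in each, and they share the H1 background, the host strain and the preparation of nuclei from flash frozen tissue. LNCPRESS1 is a long non-coding RNA of pluripotent cells, and the labels do not describe the sequence change of the DATG line. Whether replicate libraries are separate tumours or clones is not stated in the labels. The p-values thus measure only the spread between these samples, which may be technical. In each series of 6 values below the order is WT replicates 1 and 2, KO replicates 1 and 2, then DATG replicates 1 and 2.

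Squamous and other stratified epithelia rest on a basal layer of dividing cells that carry TP63, a transcription factor of the p53 family needed to form and keep such epithelia. Basal cells hold the keratins KRT5, KRT14 and KRT15, attach to the basement membrane through hemidesmosomes, which contain the collagen COL17A1, and join each other through desmosomes, which contain the cadherins DSG3 and DSC3. As cells leave the basal layer they switch to other keratins and later to proteins of the cornified layer, and in teratomas such epithelium is found as patches and cysts. miR-205 is abundant in basal and squamous epithelium.

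The libraries held from 6504 to 13489 barcodes and from 35785812 to 47574535 UMIs, and the human nuclei had median depths from 2664.0 to 4064.5 UMIs. LNCPRESS1, the targeted gene, had 9 and 3 UMIs in all human nuclei of the WT libraries, 3 and 0 in KO, and 1 and 3 in DATG. It had 0 UMIs in the TP63 squamous nuclei of every library, WT included, which allows up to 1.81 to 5.38 CPM per library (3 counts; CPM is a gene's share of the summed UMIs, times 1e6), so in these nuclei the knockout could not be checked. Of 54030 human nuclei, 322 had a barcode found in more than 1 library. No barcode was TP63 squamous in 2 libraries, and 8 of the 480 matched the barcode of a human nucleus in another library.

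DATG replicate 2 stood apart from the other 5 libraries. In a principal component analysis of the summed counts of TP63 squamous nuclei over 9056 genes, the first component took 60.5% of the variance, with DATG replicate 2 at 0.88 and the other libraries between -0.37 and -0.05. The correlation of log2 CPM across genes between the libraries of a group was 0.885 in WT, 0.908 in KO and 0.716 in DATG. Across genes these are descriptions, since genes are not independent replicates. Results that turn on this library are given with and without it.

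Doublets, 2 nuclei in 1 droplet, were called against simulated doublets and were kept. Of the 480 TP63 squamous nuclei, 99 were called as doublets, at 15.9%, 17.4%, 27.0%, 25.3%, 17.9% and 24.0% by library. Among the other human nuclei the share ran from 4.27% to 9.75%. The rule needs UMIs of 2 genes, and the nuclei that met it were deeper, with median depths of 10447, 3670.5, 6339, 5693, 4390.5 and 5984.5 UMIs, against 4010, 2655, 2680, 3899.5, 2650 and 2749.5 in the other human nuclei. STMN2, a gene of neurons, had a UMI in 50 of the 99 called doublets and in 68 of the 381 others, while MIR205HG had one in 88 of 99 and in 347 of 381.

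The TP63 squamous nuclei numbered 82 of 5542, 86 of 12254, 63 of 10096, 87 of 7945, 112 of 12103 and 50 of 6090 human nuclei. Their shares were 1.48% (95% exact Clopper-Pearson interval 1.18% to 1.83%) and 0.702% (0.562% to 0.866%) in WT, 0.624% (0.480% to 0.798%) and 1.10% (0.878% to 1.35%) in KO, and 0.925% (0.763% to 1.11%) and 0.821% (0.610% to 1.08%) in DATG. These intervals cover counting error only. WT replicate 1 was highest and KO replicate 1 lowest, and the intervals of the libraries within WT, and within KO, do not overlap.

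**Figure D1:**
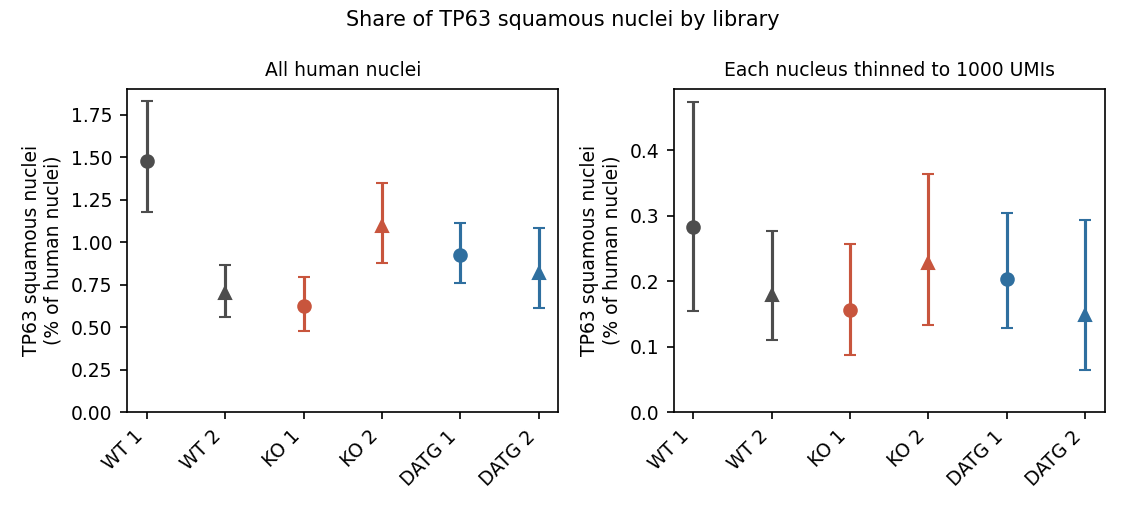
Share of human nuclei (y axis, percent) that were TP63 squamous in each library (x axis, coloured by group), as counted (left) and with each nucleus thinned to 1000 UMIs (right), with 95% exact binomial intervals as bars. On the left the WT libraries lie at 1.48% and 0.702%, on either side of all KO and DATG libraries except KO replicate 1.

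The group means were 1.09% ± 0.550 (SD, n = 2) in WT, 0.860% ± 0.333 (SD, n = 2) in KO and 0.873% ± 0.0738 (SD, n = 2) in DATG. By two-sided exact permutation tests the share differed from WT by -0.231 percentage points in KO (p = 0.667) and by -0.218 in DATG (p = 1), and DATG and KO differed by 0.014 (p = 1). With 2 libraries against 2 the smallest p is 0.333, and over all 3 groups the exact permutation p was 0.867, with 0.0667 the smallest that can be reached. The differences between groups were smaller than the spread within WT. Fewer squamous cells and less TP63 or partner RNA per nucleus cannot be told apart in such a share. Thinned to 1000 UMIs per nucleus, drawn at random, the shares were 0.282%, 0.179%, 0.156%, 0.228%, 0.203% and 0.149%. Shallower nuclei were left out there, which kept 478 of the 480 and 49391 of the 53550 other human nuclei.

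TP63, which encodes the p63 transcription factor, lies on chromosome 3 (GRCh38, 189631416 to 189897279, plus strand). The rule picked nuclei without regard to group, so groups could be compared over all human nuclei. There TP63 stood at 15.5, 14.9, 13.6, 16.5, 19.9 and 11.8 CPM. DATG held both the highest and the lowest library, so the groups overlap. With TMM scaling the means were 14.6 ± 0.108 CPM (SD, n = 2) in WT, 14.8 ± 2.87 in KO and 16.6 ± 4.64 in DATG. The log2 fold change was 0.02 (SE 0.31) for KO against WT and 0.19 (SE 0.31) for DATG against WT, with an edgeR quasi-likelihood adjusted p of 1.00 in both. Of the 7 genes of the rule 6 were tested, and edgeR called none in any of the 3 comparisons. Over all 27100 genes tested it also called 0, a background of 0%. At unadjusted p under 0.05 the gene counts were 1301 for KO against WT, 831 for DATG against WT and 1579 for DATG against KO, and DESeq2 called 150 (0.600%), 96 (0.354%) and 74 (0.339%). Without DATG replicate 1 edgeR called 830, 2660 and 7213 genes, and without DATG replicate 2 it called 792, 144 and 3, with the lone DATG library assumed to vary like the other groups.

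Single UMIs of TP63 also appeared outside the squamous nuclei. Nuclei with UMIs of STMN2 and of SYT1, SNAP25 or GAP43, genes of neurons, held a TP63 UMI in 2.67% of 9740 nuclei, and in 0.458% once thinned to 1000 UMIs. Their median depth by library ran from 3697.5 to 8622.5 UMIs. Among all human nuclei outside the squamous ones the share was 1.58%, and 0.662% after thinning. In the TP63 squamous nuclei, which all hold a TP63 UMI by choice, 40.2% kept one after thinning, and their TP63 level was 167.6, 464.6, 251.8, 360.2, 511.0 and 194.5 CPM. In every library that was above the level in the other human nuclei, which ran from 6.59 to 11.9 CPM. TP63 had 1 UMI in 176 of the 480 nuclei, 2 UMIs in 101 and 3 or more in 203.

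The partner genes came in differing sets. Of the 480 nuclei, 252 held 1 partner gene, 131 held 2 and 97 held 3 or more. The desmosomal cadherin DSC3 (chromosome 18, 30990008 to 31042815, minus strand) was found in 239 nuclei, the hemidesmosomal collagen COL17A1 (chromosome 10, 104031286 to 104085957, minus strand) in 190 and the basal keratin KRT15 (chromosome 17, 41513743 to 41522529, minus strand) in 170. The desmosomal cadherin DSG3 (chromosome 18, 31447795 to 31478702, plus strand) was found in 154 and the basal keratin KRT5 (chromosome 12, 52514575 to 52520687, minus strand) in 77. Its pairing partner KRT14 was found in 9, none of them in WT replicates 1 and 2 or DATG replicate 2. KRT5 shared 40 of its 77 nuclei with DSG3, which is 51.9% of the KRT5 nuclei and 26.0% of the DSG3 nuclei.

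The mix of partners varied between libraries. KRT15 was present in 48.8%, 20.9%, 33.3%, 35.6%, 46.4% and 16.0% of the TP63 squamous nuclei, lowest in DATG replicate 2 and WT replicate 2. DSG3 was present in 37.8%, 19.8%, 39.7%, 52.9%, 26.8% and 10.0%, again lowest in those 2 libraries. DSC3 ran the other way, at 57.3%, 59.3%, 25.4%, 49.4%, 38.4% and 78.0%, highest in DATG replicate 2. KRT5 was present in 23.2%, 6.98%, 19.05%, 24.1%, 15.2% and 4.0%, and COL17A1 in 51.2%, 38.4%, 36.5%, 43.7%, 32.1% and 36.0%, the narrowest of the 5 ranges. The WT and KO libraries did not overlap for DSG3 or DSC3, and both DATG libraries lay below all others for COL17A1. These genes chose the nuclei, so the shares were not tested. They are also not corrected for depth. Among the TP63 squamous nuclei depth was highest in WT replicate 1 (median 10447 UMIs) and lowest in WT replicate 2 (3670.5). The part of depth in the differences between libraries was not tested.

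**Figure D2:**
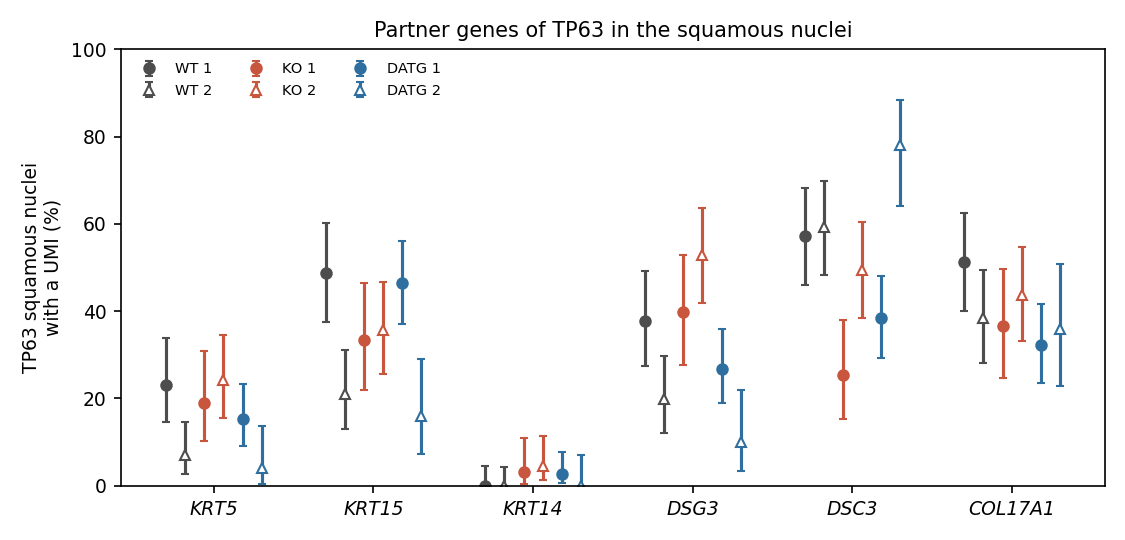
Percent of TP63 squamous nuclei (y axis) with at least 1 UMI of each partner gene (x axis), with 1 point per library coloured by group and 95% exact binomial intervals as bars. DSC3 spans 25.4% to 78.0% and is highest in DATG replicate 2, where KRT5, KRT15 and DSG3 are lowest. Depth is not corrected for.

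DSC3 was also the partner with the most RNA outside these nuclei. Its level in the other human nuclei ran from 3.05 to 80.9 CPM, against 33.4 to 151 CPM in the TP63 squamous nuclei. In DATG replicate 2, 1046 human nuclei held a DSC3 UMI and 39 of them (3.73%) were TP63 squamous. DSC3 was the sole partner in 112 of the 480 nuclei, from 11.5% in KO replicate 2 to 48.0% (24 of 50) in DATG replicate 2. KRT5, KRT15, DSG3 and COL17A1 reached at most 5.34 CPM in the other human nuclei of any library. How many nuclei met both conditions of the rule by chance was not tested, in DATG replicate 2 or elsewhere.

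A larger share of these nuclei than of others held MIR205HG, a gene the rule did not use. MIR205HG is a non-coding gene on chromosome 1 (GRCh38, 209428820 to 209432838, plus strand, a processed transcript in GENCODE 29) whose RNA hosts the hairpin of miR-205. The libraries capture polyadenylated RNA, so the counts are of the host transcript and not of the microRNA. Both mature arms are shown because they are the known products of the transcript that led these nuclei. Capitals mark the seed, bases 2 to 8 from the 5′ end, as RefSeq gives the arms on GRCh38.p14, at chr1:209432166-209432187 and chr1:209432203-209432223, both on the plus strand.
hsa-miR-205-5p: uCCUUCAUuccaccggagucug
hsa-miR-205-3p: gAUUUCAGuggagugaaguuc
The arms have different seeds.

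MIR205HG stood at 416.8, 746.2, 582.5, 804.8, 1049.2 and 359.8 CPM in the TP63 squamous nuclei. In the other human nuclei it ran from 13.2 to 24.0 CPM. The ratio within a library ran from 15.1 to 61.2, and DATG replicate 2 had the lowest level. A MIR205HG UMI was present in 435 of 480 nuclei, 90.6% (87.7% to 93.1%), from 78.0% in DATG replicate 2 to 96.3% in WT replicate 1. Without DATG replicate 2 it was present in 396 of 430, 92.1%. The neuron nuclei described above held one in 4.80%, and after thinning to 1000 UMIs the shares were 55.2% in the TP63 squamous nuclei and 1.18% in neuron nuclei. Of the other human nuclei 2.30% to 5.70% by library held one. As these are far more numerous, they gave 181 to 425 nuclei with MIR205HG per library. The TP63 squamous nuclei gave 39 to 105.

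The share with MIR205HG changed with each condition of the rule. Just outside it, 844 nuclei with TP63 but no partner held MIR205HG in 39.0% and, after thinning, in 23.0%. The 3074 nuclei with a partner but no TP63 held it in 10.2%, and in 4.07% after thinning. Just inside it, the nuclei with 1 TP63 UMI and 1 partner gene held it in 84 of 106, 79.2%. Within the rule the share was 84.7%, 93.1% and 94.6% for 1, 2, and 3 or more TP63 UMIs, and 85.3%, 95.4% and 97.9% for 1, 2, and 3 or more partner genes. Deeper nuclei hold more UMIs of every gene, and the part of depth in these orders was not tested. The 1465 nuclei of simple epithelium (EPCAM with KRT8, KRT18 or KRT19 and no partner gene) held MIR205HG in 15.9%, and in 3.49% after thinning. The skeletal muscle list, summed, ran from 155 to 2327 CPM in the nuclei with TP63 but no partner and from 62.9 to 388 CPM in the TP63 squamous nuclei.

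**Figure D3:**
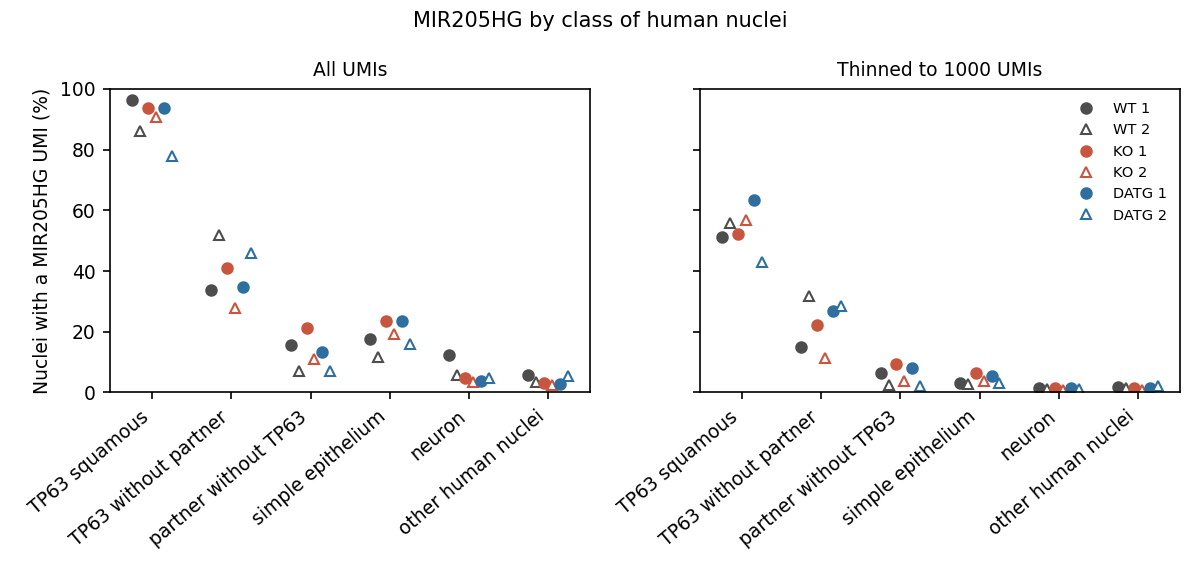
Percent of nuclei with a MIR205HG UMI (y axis) by class of human nuclei (x axis), 1 point per library, before (left) and after (right) thinning each nucleus to 1000 UMIs. The TP63 squamous nuclei lie at 78.0% to 96.3% before thinning, above the nuclei with TP63 and no partner at 28.0% to 51.8%.

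Beside MIR205HG, 24 genes led the TP63 squamous nuclei, ranked by the lowest ratio over the 6 libraries among genes at 50 CPM or more. The next was KRT13, a keratin of suprabasal layers in wet squamous epithelia such as that of the oesophagus (chromosome 17, 41500981 to 41505705, minus strand). KRT13 stood at 86.5, 17.9, 13.7, 202.2, 90.4 and 17.5 CPM, against 0.36 to 3.56 CPM in the other nuclei. GRHL2, a transcription factor of epithelial identity, stood at 212, 378, 193, 355, 337 and 661 CPM, with ratios from 3.58 to 26.5. PERP, a desmosome-associated target of p63, stood at 28.4, 57.4, 60.7, 36.2, 81.8 and 80.4 CPM, and the P-cadherin gene CDH3 at 52.0, 138, 59.2, 91.1, 83.2 and 190 CPM. BARX2, a homeobox transcription factor, stood at 112, 73.5, 9.10, 96.4, 81.8 and 27.8 CPM and was lowest in KO replicate 1. PPL, the cornified envelope and desmosome protein periplakin, DSG2, a desmosomal cadherin, the keratin KRT19, and BCAM, a receptor for laminin, also belonged to the 24. So did PIK3C2G, VIT, GABRP, IKZF2, SLCO2A1, MPPED1, FAM83B, LYPD6B, MAP3K5, PRKCH, SYNPO2, EXPH5, ACSM3, SEMA3D and ARAP2, with lowest ratios from 2.01 in ARAP2 to 4.13 in PIK3C2G.

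Most genes of the epithelial lists were higher in the TP63 squamous nuclei than in the other human nuclei. Of 12080 genes at 10 CPM or more, 9.48% were higher and 9.04% lower in the TP63 squamous nuclei in all 6 libraries, and the median gene had a ratio of 1.00. These counts compare nuclei picked by their RNA with the rest and carry no test. Of the basal layer and p63 list without the rule genes, 12 of 17 were higher in all 6 libraries (median ratio 3.01). Of the desmosome and adherens junction list it was 11 of 14 (2.55), and of the hemidesmosome and basement membrane list 10 of 17 (2.44). Of general epithelium it was 10 of 15 (2.29), and of surface ectoderm and amnion 6 of 9 (2.76).

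In the basal list FAT2, an atypical cadherin of basal keratinocytes, stood between 13.2 and 47.8 CPM against 1.82 to 5.85 CPM in the other nuclei. KRT17, a keratin of basal and appendage epithelium, stood between 14.5 and 43.1 CPM against 0.67 to 4.76. EGFR, a receptor that drives keratinocyte growth, stood at 236, 362, 191, 418, 372 and 357 CPM, with 87.5 to 157 CPM in the other nuclei. FGFR2, whose epithelial form receives FGF signals from mesenchyme, stood between 439 and 756 CPM against 177 to 423. For attachment, ITGB4, the integrin of hemidesmosomes, stood between 17.5 and 41.6 CPM against 1.35 to 7.17. LAMB3, a chain of the laminin of the epidermal basement membrane, stood between 5.38 and 34.9 CPM against 1.35 to 6.79. Of the junction genes, DSP, which encodes desmoplakin, stood at 88.9, 142, 45.5, 145, 84.7 and 193 CPM, and CDH1, which encodes E-cadherin, at 79.2, 127, 65.2, 102, 105 and 194 CPM.

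Genes of the upper layers were low but above the other nuclei as a list. Of 30 genes of the suprabasal and cornified list 11 had no UMI in the 480 nuclei and 3 reached 10 CPM, 2 of which were higher in all 6 libraries (median ratio 3.20). The summed level ran from 62.9 to 352 CPM against 32.4 to 61.9 CPM, higher in all 6 libraries by 0.43 to 2.70 on the log2 scale. DSG1, the cadherin of upper desmosomes, stood at 6.05, 7.18, 12.1, 18.7, 14.4 and 0 CPM, against 0.093 to 0.166 CPM in the other nuclei. In DATG replicate 2, the library at 0, a count of 0 allows up to 4.39 CPM, so the gene was not detectable there at this depth.

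Markers of particular squamous sites differed among themselves. Of the airway and foregut list 1 of 5 genes at 10 CPM was higher in all 6 libraries, and of the hair follicle, tooth and gland placode list 1 of 11 was higher and 1 lower (median ratio 1.01), near the background of 9.48% and 9.04%. WNT6, a ligand of ectoderm, stood at 18.8, 52.0, 22.8, 30.8, 34.4 and 51.2 CPM, against 0.85 to 9.86 CPM. FOXN1, a transcription factor of thymus epithelium and of differentiating keratinocytes, stood at 14.5, 8.97, 10.6, 8.03, 23.0 and 4.39 CPM, against 0.10 to 0.65 CPM. It had a UMI in 45 of 480 TP63 squamous nuclei, 9.38%, in 0.12% of the other human nuclei and in 0.17% of neuron nuclei. Of the 8 genes of the thymus epithelium list, 1 reached 10 CPM in the TP63 squamous nuclei and 2 had no UMI there. PAX9, a transcription factor of foregut and oral epithelium, stood at 4.23, 34.1, 30.3, 20.1, 45.9 and 0 CPM. The count of 0 in DATG replicate 2 allows up to 4.39 CPM. Its level in the other human nuclei is not given here.

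Signalling lists had median ratios nearer 1, but not all their shares lay near the background of 9.48% higher and 9.04% lower. For NOTCH, which acts as cells leave the basal layer, 2 of 12 genes were higher in all 6 libraries (16.7%) and 2 lower (median ratio 0.937). For WNT it was 8 of 26 higher (30.8%) and 1 lower (1.07). For EGF and FGF receptor ligands 1 of 11 was higher and 4 were lower (36.4%), with a median ratio of 0.939. For the p53 family and p53 targets it was 1 of 13 higher and 0 lower (1.03). For S, G2 and M phase genes it was 5 of 29 higher (17.2%) and 0 lower (1.17). MKI67, a marker of dividing cells, had a UMI in 25.8% of TP63 squamous and 12.5% of other human nuclei, and after thinning in 5.23% and 4.03%.

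Of the other cell types, the neuron and mesenchyme lists held the most genes that were lower. Of the neuron list 12 of 15 genes were lower in all 6 libraries (median ratio 0.614), and its summed level was 964 to 4232 CPM in the TP63 squamous nuclei and 1638 to 5116 CPM in the others. Of the mesenchyme list 14 of 14 were lower (0.502), at 1124 to 6233 CPM against 1850 to 10670. No gene of either list was at 0. Fewer genes were lower in all 6 libraries for gut epithelium (1 of 5), melanocyte and pigment epithelium (1 of 5), pluripotent (1 of 4), chondrocyte (2 of 7), skeletal muscle (0 of 3) and Schwann and neural crest (0 of 2). COL3A1, a collagen of mesenchyme, had a UMI in 85.2% of TP63 squamous and 83.5% of other human nuclei, and STMN2 in 24.6% and 21.9%. The part of RNA from other cells in the levels given here was not tested.

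**Figure D4:**
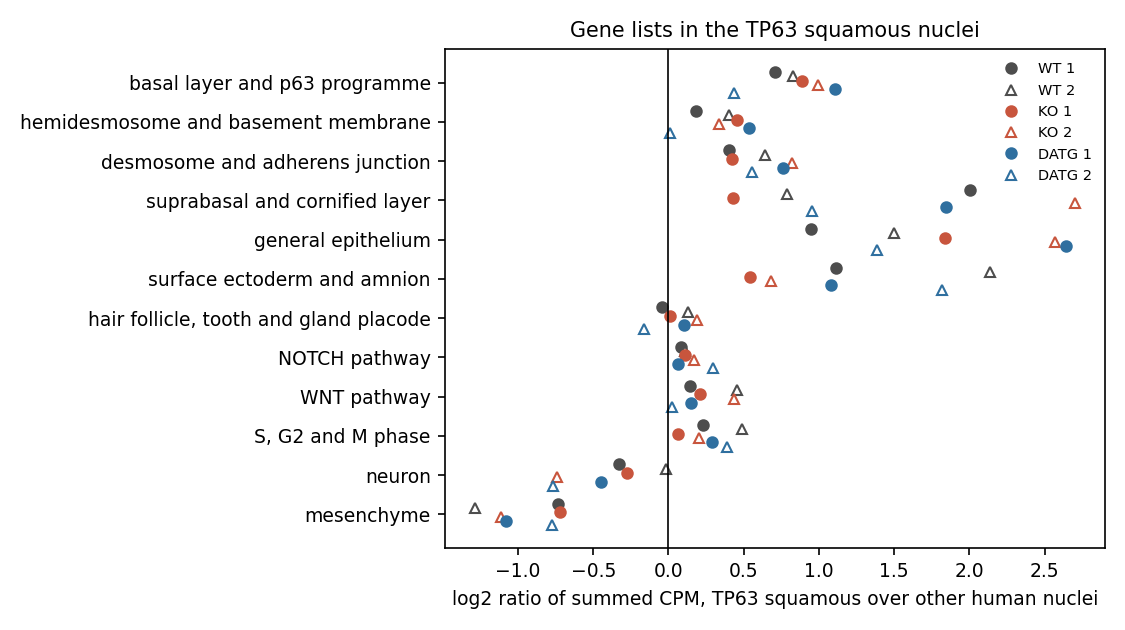
Log2 ratio of the summed CPM of 12 gene lists (y axis) in TP63 squamous over other human nuclei (x axis), 1 point per library coloured by group. General epithelium runs from 0.95 to 2.64, while mesenchyme runs from -1.28 to -0.72.

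The TP63 squamous nuclei were also described by KRT13 and by GABRP or VTCN1, genes chosen after their values were seen. A UMI of KRT13 was present in 83 nuclei, by library 32 of 82, 7 of 86, 8 of 63, 19 of 87, 11 of 112 and 6 of 50. A UMI of GABRP, a GABA receptor subunit, or VTCN1, a membrane protein of the B7 family, both also found in amnion and placental epithelium, was present in 74 nuclei, by library 11, 22, 4, 8, 2 and 27. There were 7 nuclei with both and 330 with neither, and whether that overlap is smaller than chance was not tested. The KRT13 nuclei were most frequent in WT replicate 1, at 39.0%, and the GABRP or VTCN1 nuclei in DATG replicate 2, at 54.0%. WT replicate 1 also had the deepest TP63 squamous nuclei, at a median of 10447 UMIs. By CPM, given above, KRT13 was higher in KO replicate 2 and DATG replicate 1 than in WT replicate 1. The part of depth in these shares was not tested. Without DATG replicate 2 the counts were 77 of 430 (17.9%) and 47 of 430 (10.9%).

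**Figure D5:**
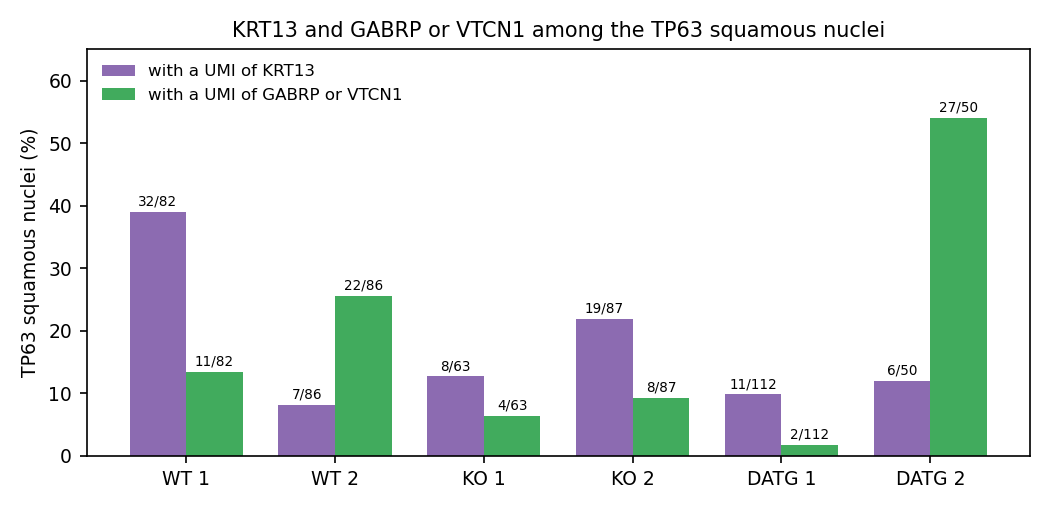
Percent of TP63 squamous nuclei (y axis) with a UMI of KRT13, and of GABRP or VTCN1, in each library (x axis), with the numbers of nuclei over the bars. KRT13 peaks in WT replicate 1 at 39.0% and GABRP or VTCN1 in DATG replicate 2 at 54.0%. The shares are not corrected for depth.

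Nuclei with KRT13 more often held some of the other stratified genes, but not all. KRT5 was present in 33.7% of them and in 12.3% of nuclei without KRT13, DSG3 in 44 of 83 and 27.7%, FAT2 in 43.4% and 16.1%, and DSG1 in 18.1% and 4.03%. COL17A1 was present in 38.6% and 39.8%, and DSC3 in 50.6% and 49.6%. KRT5, DSG3, COL17A1 and DSC3 are partner genes of the rule, so the choice of nuclei ties their shares to each other. SPRR3, a cornified envelope gene of the oesophagus and mouth, had a UMI in 8 of 83 and 1 of 397. Their median depths were 5540 and 5184 UMIs. Within WT replicate 1, which gave 32 of the 83, KRT5 was present in 11 of 32 nuclei with KRT13 and 8 of 50 without, FAT2 in 22 and 21, DSG3 in 13 and 18, DSC3 in 15 and 32, and DSG1 in 5 and 0.

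Nuclei with GABRP or VTCN1 had another profile. DSC3 was present in 82.4% of them and in 43.8% of the rest, CDH1 in 68.9% and 42.1%, and GATA3, a transcription factor of surface ectoderm, trophoblast and amnion, in 47.3% and 14.0%. KRT15 went the other way, at 16.2% and 38.9%, as did DSG3, at 10.8% and 36.0%. MIR205HG was present in 91.9% and 90.4%. DSC3, KRT15 and DSG3 are partner genes of the rule, and each nucleus needed at least 1 partner. Nuclei that entered through DSC3 needed no KRT15 or DSG3, and the part of this choice in the shares was not tested. The nuclei with GABRP or VTCN1 were deeper, at a median of 8591.5 against 4982 UMIs, and the part of depth in these shares was not tested. Within WT replicate 2, GATA3 was present in 13 of 22 nuclei with GABRP or VTCN1 and 14 of 64 without, DSG3 in 0 and 17, and KRT15 in 1 and 17. Within DATG replicate 2, GATA3 was present in 15 of 27 and 1 of 23, and KRT15 in 2 and 6. These 2 libraries gave 49 of the 74 nuclei and were also lowest in KRT15 and DSG3 as a whole. In WT replicate 1 KRT15 was present in 5 of 11 nuclei with GABRP or VTCN1 and 35 of 71 without, and in KO replicate 2 in 3 of 8 and 28 of 79. DSG3 was present in 3 of 11 and 28 of 71, and in 2 of 8 and 44 of 79. The same genes were not confined to TP63 squamous nuclei, since GABRP in the other human nuclei ran from 0.91 to 189 CPM, highest in DATG replicate 2.

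No gene changed between groups within the TP63 squamous nuclei by edgeR's quasi-likelihood test on counts summed per library. Of 11532 genes tested, 0 (a background of 0%) passed an adjusted p of 0.05 in KO against WT, in DATG against WT and in DATG against KO. At unadjusted p under 0.05 the numbers were 263, 513 and 796. DESeq2 called 0, 31 (0.401% of those it tested; 25 higher and 6 lower) and 25 (0.276%; 21 higher and 4 lower). The common spread between libraries of a group was a coefficient of variation of 31.6%. Counts for KO against WT were simulated for 11538 genes, with a spread estimated for each gene. True changes of 2-fold were found for 1 of 57, of 4-fold for 21 of 74 and of 8-fold for 52 of 69. In this simulation 6 unchanged genes were called. Without DATG replicate 1 edgeR called 4, 496 and 1273 genes, and with no filter on low counts 58, 179 and 343. The comparisons share groups, so values below are given side by side.

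In KO against WT the named genes, picked by the smallest p among those whose libraries do not overlap, all missed the test, with an edgeR adjusted p of 1.00. SLC38A11, a member of an amino acid transporter family, stood at 123, 109, 12.7, 19.8, 4.6 and 8.1 TMM-scaled CPM. Its log2 fold change was -2.82 (SE 0.38) in KO and -4.17 (SE 0.44, edgeR adjusted p = 0.296) in DATG, both against WT. In the other human nuclei SLC38A11 stood at 63.4, 31.7, 10.5, 20.4, 7.9 and 21.0 CPM, and the WT libraries were highest there too. ACSM3, a mitochondrial acyl-CoA synthetase, stood at 201, 186, 56.9, 55.0, 91.3 and 181 CPM (log2 fold change -1.79, SE 0.36, in KO against WT). ATP10A, a lipid flippase, PAMR1 and STOX1 had log2 fold changes of -2.64, -2.22 and -1.87. Higher in both KO libraries were KIRREL3, an adhesion molecule, at 134 and 127 CPM against 56.7 and 55.3 in WT, and DAAM1, a formin of the planar polarity WNT branch, at 307 and 319 against 164 and 170. NDST4 and NECTIN3-AS1 were higher in both KO libraries as well. In the other human nuclei KIRREL3 stood at 72.4 and 55.8 CPM in WT and 135 and 124 in KO, DAAM1 at 220 and 233 against 352 and 389, and NDST4 at 62.3 and 68.4 against 141 and 172, so KO was also higher there.

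In DATG against WT the named genes higher in both DATG libraries were 5 ribosomal protein genes, RPL36A, RPL36, RPL35, RPL39 and RPL37. Such genes have many near-identical pseudogenes, so their counts are uncertain. RPL39 stood at 39.8, 64.5, 111, 53.6, 348 and 317 CPM (log2 fold change 2.71, SE 0.41, edgeR adjusted p = 0.370 in DATG against WT). In the other human nuclei RPL39 stood at 77.3, 107, 131, 82.5, 249 and 150 CPM. The share of UMIs on all ribosomal protein genes was 0.547%, 1.08%, 1.22%, 0.653%, 2.57% and 1.51% in the TP63 squamous nuclei and 0.818%, 1.29%, 1.33%, 0.860%, 2.02% and 0.802% in the other human nuclei. It was highest in both DATG libraries in the former, while in the latter DATG replicate 2 was the lowest. The mitochondrial share was 0.0728%, 0.0529%, 0.149%, 0.0224%, 0.408% and 1.12% in the TP63 squamous nuclei, also highest in DATG. In the other human nuclei it was 0.173%, 0.0696%, 0.163%, 0.108%, 0.480% and 0.505%, so both DATG libraries were highest there too. The part of cytoplasmic RNA in these genes was not tested. Against KO, RPL35, RPL37 and the translation factors EEF1A1 and EEF2 were higher in both DATG libraries, EEF1A1 at 1124 and 1187 CPM against 367 and 203 (log2 fold change 2.02, SE 0.35, edgeR adjusted p = 0.692). In the other human nuclei EEF1A1 stood at 918 and 564 CPM in DATG against 397 and 291 in KO. RPL37 and EEF2 were also higher in both DATG libraries there, while the DATG and KO libraries overlapped for RPL35.

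H19, a maternally expressed imprinted RNA, had no UMI in the TP63 squamous nuclei of either DATG library, against 131 and 63 UMIs in WT and 53 and 28 in KO. Against the floor of 3 counts over the DATG group, 2.17 CPM, it was at least 40.4-fold lower than in WT and at least 26.5-fold lower than in KO. It missed the edgeR test at adjusted p = 0.364 and 0.692. KO replicate 1, at 83.8 TMM-scaled CPM, lay within the WT values of 79.0 and 116, and KO replicate 2 was at 39.5. The other human nuclei stood at 84.2, 127, 20.7, 51.9, 0.9 and 0.7 CPM, again lowest in both DATG libraries.

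TRPM1, a cation channel of melanocytes, stood at 71.2, 36.9, 33.2, 48.0, 3.0 and 3.2 CPM (log2 fold change -4.08, edgeR adjusted p = 0.370, against WT). The melanocyte and pigment epithelium list as a whole had 0 of 5 tested genes above 0 in DATG against WT, with a median of -3.38 where the median of all genes was -0.01. Its summed level was 223, 145, 184, 194, 35.9 and 40.9 CPM in the TP63 squamous nuclei and 255, 177, 200, 260, 93.0 and 90.3 CPM in the other human nuclei, so both DATG libraries were lowest in each. The part of pigment cell RNA in these nuclei was not tested. PRDM16 and ONECUT1, both transcription factors, had log2 fold changes of -2.91 (SE 0.54) and -4.24 (SE 0.91) in DATG against WT. Both missed the edgeR test, at adjusted p = 0.760 and 0.961. PRDM16 stood at 132 and 53.5 CPM in WT and 15.2 and 9.7 in DATG. ONECUT1 stood at 64.6 and 25.8 CPM in WT and had 3 and 0 UMIs in DATG, so its fold change rests on counts near the floor. Against KO, TRPM3, a cation channel, and SV2C, a synaptic vesicle protein, were lower in both DATG libraries, with -1.98 and -3.54, as was DAAM1 with -1.16. TFAP2B, a transcription factor of surface ectoderm, stood at 155 and 199 CPM in DATG and 61.7 and 45.1 in KO (log2 fold change 1.73, SE 0.32, edgeR adjusted p = 0.692). In the other human nuclei TRPM1, PRDM16 and ONECUT1 were also lower in both DATG libraries than in WT. There TRPM3, SV2C and DAAM1 were also lower than in KO, while the DATG and KO libraries overlapped for TFAP2B.

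None of the squamous lists had a gene that passed the test. For the basal layer and p63 list, with 16 genes tested, 9 lay above 0 in KO against WT (median log2 fold change 0.04) and 14 in DATG against WT (0.40). For hemidesmosome and basement membrane it was 10 and 15 of 17 (0.13 and 0.44), and for desmosome and adherens junction 3 and 10 of 13 (-0.20 and 0.26). The median of all 11532 genes was 0.00 in KO and -0.01 in DATG. These medians turned on single libraries too. For DATG against WT without DATG replicate 2 they were 0.39, 0.16 and -0.27 for the 3 lists in this order. For KO against WT without KO replicate 2 they were -0.22, -0.24 and -0.87, and without WT replicate 1 -0.02, -0.17 and -0.36. The desmosome median was 0.16 without KO replicate 1 and 0.14 without WT replicate 2. LAMB3, at log2 fold changes of 1.96 (SE 0.63) in KO and 1.84 (SE 0.63) in DATG, had one of the smallest unadjusted p of the hemidesmosome list in both and missed the edgeR test. FREM1, a basement membrane protein of the Fraser complex, had -1.10 (SE 0.34) in KO and missed it too.

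Lists of other tissues gave wider medians that also turned on single libraries. Surface ectoderm and amnion genes lay above 0 in DATG against WT for 9 of 9 (median 1.15), and the median was 0.17 without DATG replicate 2. Against KO it was 1.73, and 0.58 without that library. General epithelium had a median of 0.44 in DATG against WT and -0.04 without DATG replicate 2. Neuron genes lay above 0 in KO against WT for 15 of 15 (1.14), and at 0.56 without KO replicate 1. In DATG against WT the neuron median was 0.28, at 1.01 without DATG replicate 2 and -2.57 without DATG replicate 1. The neuron list summed to 1795, 2386, 4232, 2978, 3650 and 964 CPM in the TP63 squamous nuclei and to 2249, 2416, 5116, 4968, 4970 and 1638 CPM in the other human nuclei. WT and DATG replicate 2 were the low libraries in both, and the part of neuron RNA in these nuclei was not tested. Mesenchyme genes lay above 0 in KO against WT for 1 of 14 (-0.51, and -1.06 with called doublets left out), with summed levels of 2786, 3441, 1124, 2063, 3495 and 6233 CPM in the TP63 squamous nuclei and 4641, 8373, 1850, 4472, 7376 and 10670 CPM in the other human nuclei. Both KO libraries were the lowest in each.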

How the data were processed

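The authors deposited 1 matrix of UMI counts for each of the 6 libraries, not normalized, on a joint human and mouse reference. The submitters' processing notes name Cell Ranger 8.0.1 and the matrix headers 8.0.0. How introns and strand were handled is not given in the sources, so genes that overlap cannot be told apart. Gene positions are from GENCODE 29 on GRCh38 by gene identifier, and microRNA sequences from RefSeq on GRCh38.p14.

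Counts were summed per library over the TP63 squamous nuclei or over all human nuclei, since nuclei are not replicates. CPM divide a gene's UMIs by all UMIs of that sum, times 1e6, with TMM scaling where said. A ratio divides CPM in the TP63 squamous by CPM in the other human nuclei, with 1 UMI in place of 0 in the latter. Sums were tested with the quasi-likelihood F test of edgeR 4.0.16 (R 4.3.3), with its default filter and 1 fit of all 6 libraries, after a test on simulated data. The threshold was a Benjamini-Hochberg adjusted p of 0.05 over all genes. DESeq2 1.42.0 was an alternative, with missing adjusted p left missing. Shares were compared with exact permutation tests. Doublets were called with 2000 variable genes, 30 components and a neighbour setting of 30, scaled up to make room for the simulated doublets. A rate of 0.8% per 1000 nuclei was assumed, which fixed how many nuclei were called in each library. Replicate numbers shared between groups were not taken to pair libraries.

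Named genes were the 7 rule genes, members of the 28 gene lists by level or p, up to 25 leading genes at 50 CPM or more with the largest lowest ratio, and per comparison up to 8 genes per direction past the threshold, filled to 5 with the smallest p among genes at 20 CPM or more whose libraries do not overlap. Clone names were left out, and 1 gene the rule names is not reported here. The nuclei, lists and tests were chosen with earlier results of these data known. With 2 libraries a group and 50 to 112 nuclei in each, counting error and library spread limit the precision.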

Additional observations from a re-analysis of the deposited data

How the results depend on the processing

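With 2 libraries a group no alternative could bring the differences in share past the threshold, and their signs rest on single libraries. Leaving out each library in turn, KO minus WT ran from -0.620 to 0.158 percentage points and turned positive without WT replicate 1 (0.158) and without KO replicate 1 (0.004). DATG minus WT ran from -0.606 to 0.171, positive without WT replicate 1. DATG minus KO, 0.014 as reported, ran from -0.222 to 0.249, negative without KO replicate 1 (-0.222) and without DATG replicate 1 (-0.039). It was also negative with at least 2 TP63 UMIs (-0.091), at least 2 partner genes (-0.166), DSC3 and COL17A1 not used (-0.190) and thinned nuclei (-0.016). In alternatives chosen after seeing the data it was -0.135 with 2 TP63 UMIs and 2 partner genes, and -0.154 with nuclei whose sole partner was DSC3 left out. With called doublets left out the 3 differences were -0.288, -0.224 and 0.064. The cause was not tested.

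Within the TP63 squamous nuclei the numbers of genes called, 0 as reported, were 58, 179 and 343 with no filter on low counts (KO against WT, DATG against WT, DATG against KO) and 0, 31 and 25 with DESeq2. Without 1 library they ran from 0 to 4, 0 to 496 and 0 to 1273, with the highest without DATG replicate 1. There the lone DATG library is assumed to vary like the other groups. Over all human nuclei DESeq2 called 150, 96 and 74, the 4 libraries of KO and WT alone gave 714, and without 1 library the numbers ran from 0 to 830, 0 to 2660 and 0 to 7213, highest without DATG replicate 1.

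With the replicate number as a block 0 genes passed in each comparison, within the TP63 squamous nuclei and over all human nuclei. The share differences cannot move under this block, since every group has both replicate numbers. At unadjusted p under 0.05 the block gave 313, 533 and 879 genes within them. Deviations of libraries with the same number correlated at 0.01 for KO with WT, 0.01 for DATG with WT and 0.27 for DATG with KO, so the numbers were not taken to pair libraries.

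Single-gene results other than those of TP63 are of genes picked by the smallest p among genes whose libraries do not overlap. Leaving out a library could thus hardly turn their sign. For the 33 single-gene results 479 alternatives were computed. Of these 413 kept direction and side of the threshold, 61 passed it (14 with DESeq2, 25 with no filter, 22 without DATG replicate 1), and 5 turned sign. All 5 were TP63 over all human nuclei: KO against WT at -0.20 without KO replicate 2 and -0.061 with called doublets left out, DATG against WT at -0.16 without DATG replicate 1, and DATG against KO at -0.021 without KO replicate 1 and -0.16 without DATG replicate 1. Leaving out each library in turn, these TP63 values ran from -0.20 to 0.21, -0.16 to 0.44 and -0.16 to 0.44. The shallow KRT5, KRT14 and DSG1 counts leave differences between groups in these genes not detectable at this depth.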
